A study of Mus musculus with 6 samples.

Results

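The 10 genes described here, Wt1, Msln, Upk3b, Lrrn4, Aldh1a2, Muc16, Crb2, Bnc1, Cldn15 and Upk1b, are genes of the mesothelium, the sheet of flat epithelial cells that covers the lung. They were found by symbol among the 20494 rows of the authors' deposited table, 1 row for each gene. They were selected on their group means and missing p-values in that table, so their differences between genotypes are given as a description. Whole lungs came from untreated 4-month-old male C57BL/6 mice, 3 libraries from lincRNA-Cox2 KO mice and 3 from Wild type mice. The labels do not say how the allele was made or whether the RNA of a library came from 1 mouse, so the spread between libraries may be technical in part. The targeted gene, LincRNA-Cox2, gives a long noncoding RNA and neighbours Ptgs2, the inducible cyclooxygenase gene; its own mean was 311 normalized counts in wild type and 0.666 in knockout in the authors' deposited table. The table holds group means and 1 comparison, with no values of single libraries. The means summed to 3.71e+07 in wild type and 3.68e+07 in knockout, which are scaled totals, and the depth of a library is not known.

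Mesothelial cells secrete the lubricating film that lets the lung slide against the chest wall, carry a brush of microvilli and mucin-like proteins, and can change into fibroblast-like cells after injury. In the fetus they express the transcription factor Wt1 and make retinoic acid with the enzyme encoded by Aldh1a2. In the adult lung they form a thin outer layer, so their RNA is a small part of whole-lung RNA. In such bulk RNA, fewer cells of a type and less RNA per cell cannot be told apart. The lung itself was evident in both groups from Sftpc, the surfactant gene of alveolar type 2 cells, with authors' means of 82187 in wild type and 83359 in knockout.

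Of the 10 mesothelial genes, 9 had a higher mean in knockout, by 3.26-fold for Muc16 to 9.60-fold for Upk3b, and 1, Upk1b, had nearly equal means. The median log2 ratio of the means, with 1 normalized count added to each, was 2.46 over the 10 genes, against -0.00 over all rows. A higher knockout mean was found in 48.8% of all rows, and a mean at least 2-fold higher in 0.436% of rows with an overall mean of at least 10, that is 75 rows. The 9 genes were 9 of those 75 rows, and 66 were other genes. Summed over the 9 genes, the authors' means were 818 normalized counts in wild type and 4840 in knockout, 5.91-fold apart. In the authors' deposited table, Muc16 and Crb2, 2 of the 10, rose at an adjusted p under 0.05, where 0.592% of all rows with an adjusted p were called higher and 1.09% in either direction. Another 7, Wt1, Msln, Upk3b, Lrrn4, Aldh1a2, Bnc1 and Cldn15, have no p-value there, as do 17 of the 20494 rows, or 0.083%.

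**Figure D1:**
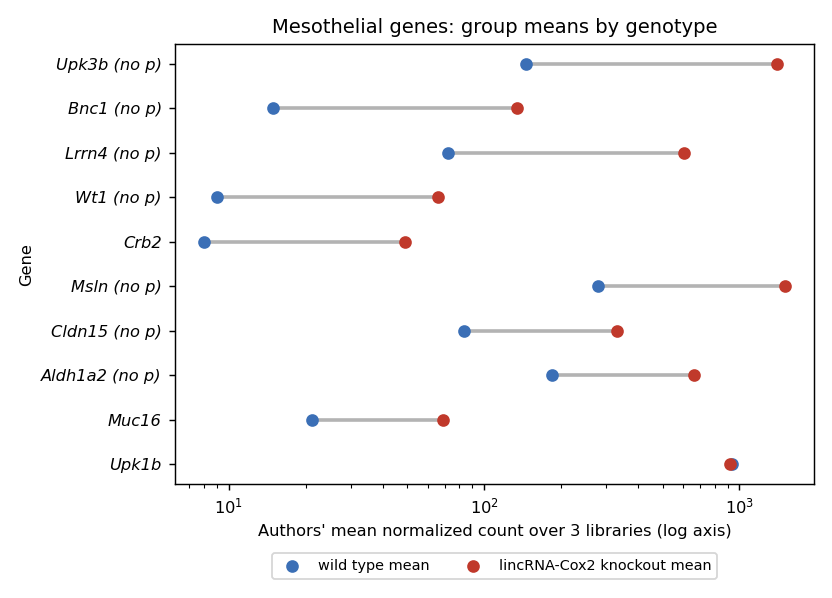
Authors' mean normalized counts of the 10 mesothelial genes (log axis), wild type in blue and knockout in red, ordered by the fold between them, with "no p" after the genes without a p-value. The knockout mean lies to the right for 9 genes, by 9.60-fold for Upk3b at the top, and the points of Upk1b nearly coincide at 939 and 916.

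Upstream sequence is shown for the 3 genes with the highest fold between the means and for Aldh1a2, the gene with a match to the WT1 core. Promoters of 7 of the 10 genes were matched in RefSeq (GRCm38.p6, the assembly of mm10), and those of Wt1, Msln and Upk1b were not. The 250 bases before each RefSeq start site were searched on both strands. The letters sought were GCGTGGG, a core bound by the zinc fingers that WT1 shares with EGR factors, and GGAATG, the core bound by TEAD factors. The gene coordinates given below are from GENCODE M21, and their starts can differ from the RefSeq starts. Capitals mark a match, written on the strand of the gene. Upk3b is shown from chr5:136038246-136038495 (plus strand), Bnc1 from chr7:81992300-81992549 (minus strand), Lrrn4 from chr2:132880863-132881112 (minus strand) and Aldh1a2 from chr9:71215539-71215788 (plus strand).
Upk3b: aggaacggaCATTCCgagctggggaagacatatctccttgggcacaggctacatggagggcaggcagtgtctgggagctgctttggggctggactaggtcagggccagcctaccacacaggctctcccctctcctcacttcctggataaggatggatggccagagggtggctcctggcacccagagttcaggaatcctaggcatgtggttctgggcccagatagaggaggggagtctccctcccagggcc
Bnc1: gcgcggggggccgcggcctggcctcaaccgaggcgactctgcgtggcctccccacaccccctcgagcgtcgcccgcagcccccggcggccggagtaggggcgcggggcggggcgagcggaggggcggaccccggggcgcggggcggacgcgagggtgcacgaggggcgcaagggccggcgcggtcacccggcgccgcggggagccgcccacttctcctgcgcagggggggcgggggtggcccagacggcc
Lrrn4: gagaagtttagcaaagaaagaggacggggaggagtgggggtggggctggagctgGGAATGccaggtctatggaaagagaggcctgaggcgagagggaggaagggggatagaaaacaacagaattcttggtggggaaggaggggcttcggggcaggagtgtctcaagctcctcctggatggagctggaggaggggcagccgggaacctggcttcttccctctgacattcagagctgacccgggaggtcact
Aldh1a2: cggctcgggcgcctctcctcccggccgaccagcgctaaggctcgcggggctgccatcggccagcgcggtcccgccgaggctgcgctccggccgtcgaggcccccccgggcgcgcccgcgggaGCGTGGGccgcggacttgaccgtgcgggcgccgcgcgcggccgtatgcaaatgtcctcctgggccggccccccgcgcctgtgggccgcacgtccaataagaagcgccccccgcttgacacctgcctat
GCGTGGG was found in 1 of the 7 windows, that of Aldh1a2, with its first base 128 bases before the start, and in 4.30% of 32851 windows of the same length. GGAATG was found in 3 of the 7, Upk3b, Lrrn4 and Cldn15, and in 12.6% of all windows. By the GENCODE coordinates, the Cldn15 window (chr5:136967619-136967868) lies inside the gene, and the Lrrn4 window overlaps the start of its gene. The GC content of the 7 windows ran from 46.4% to 83.6%, against a median of 52.4% over all windows, and 6 of the 7 were above that median. A match of letters is a description and does not show that a factor binds.

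Wt1, a zinc finger transcription factor that marks mesothelium and its precursors (kgCluster16363, mm10 chromosome 2, 105126529 to 105173616), was among the lowest of the 10. Its group means could be split into reads per library, because each could be written in exactly 1 way as whole reads times the scaling of each library. Such a split existed for every mean between 0 and 40. It existed for only 10.8% of knockout means between 60 and 100, where the knockout means of Wt1 and Muc16 lie. These libraries carry the letters A, B and C in either genotype, and the letters are neither tied to a labelled sample nor paired between genotypes. Wild type libraries A, B and C held 11, 13 and 3 reads of Wt1, and knockout libraries A, B and C held 28, 137 and 35. All knockout libraries were above all wild type libraries, and knockout B stood far above the other 2. Among 2186 rows with reads derived in both genotypes and at least 60 reads, such separation was found in 7.27%. Knockout B was the highest of its group in 42.5%. Wt1 was selected on its means, so nothing is read from the separation. The normalized counts were 8.95 ± 5.16 (SD, n = 3) in wild type and 65.8 ± 59.4 (SD, n = 3) in knockout, a 7.34-fold difference. Without knockout library B the fold was 3.52, and without wild type library C it was 5.54. The lowest knockout library was 2.11 times the highest wild type library. Library B held 68.5% of the knockout reads of Wt1 (95% exact Clopper-Pearson interval 61.6% to 74.9%, counting error only). The antisense gene Wt1os, which lies beside Wt1 on the other strand, had authors' means of 0 and 0.980 normalized counts.

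Bnc1, basonuclin 1, a zinc finger protein of germ cells and of stratified and mesothelial epithelia (kgCluster26609, chromosome 7, 81966672 to 81992292), had authors' means of 14.9 and 135, 9.05-fold higher in knockout. Its wild type reads were 10, 32 and 3 in libraries A, B and C, a 10.2-fold range of normalized counts within 1 genotype. The knockout mean could not be split in exactly 1 way. Its relative Bnc2, which fibroblasts also express, had authors' means of 156 and 223, with an adjusted p of 0.25 in the authors' deposited table.

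**Figure D2:**
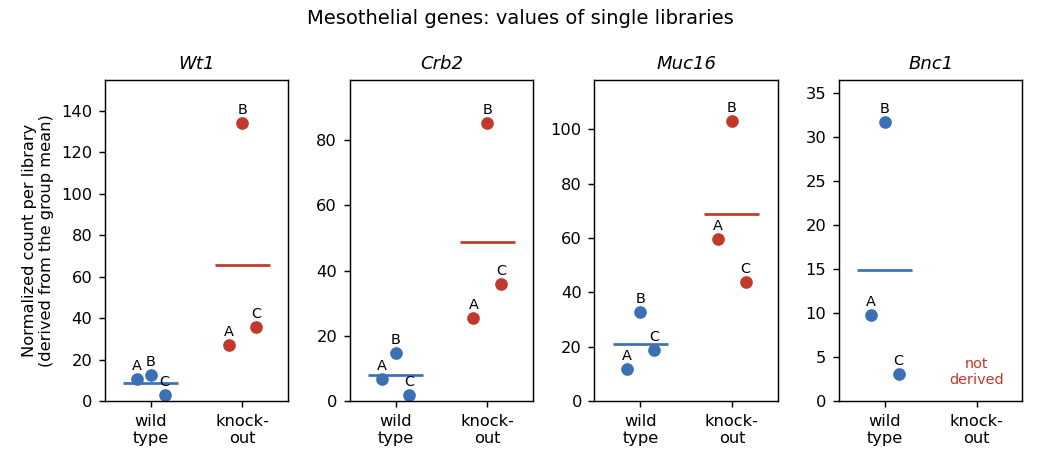
Normalized counts of single libraries for the 4 mesothelial genes whose group means could be split into whole reads (linear axes that start at 0 and differ between panels). Points are libraries A, B and C, lines are group means, and Bnc1 has no derived knockout values. In Wt1, Crb2 and Muc16 every knockout point lies above every wild type point, and knockout library B is the highest. Among 2186 rows with derived reads the first was found in 7.27% and the second in 42.5%, and these genes were selected on their means.

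Msln and Muc16 belong to the mesothelin system of the cell surface. Mesothelin (Msln, kgCluster11750, chromosome 17, 25748613 to 25754378) is a membrane-anchored glycoprotein that binds the large mucin Muc16, known as the antigen CA125. The authors' means of Msln were 278 in wild type and 1515 in knockout, 5.44-fold apart. Muc16 (kgCluster29217, chromosome 9, 18495455 to 18674530) had 12, 33 and 18 reads in wild type libraries A, B and C, and 61, 105 and 43 in knockout libraries A, B and C. No knockout library was as low as a wild type one, the lowest knockout library being 1.34 times the highest wild type library. Such separation was found in 7.27% of the 2186 rows compared for Wt1, and Muc16 too was selected on its means. The normalized counts of Muc16 were 21.1 ± 10.7 (SD, n = 3) and 68.8 ± 30.5 (SD, n = 3), and the fold of 3.26 became 2.45 without knockout library B. Library B held 50.2% of the knockout reads of Muc16, less than of Wt1. In the authors' deposited table Muc16 had a shrunken log2 fold change of 0.22 ± 0.059 (SE) and an adjusted p of 0.0209.

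Relatives of these surface genes had smaller ratios. Mslnl, the mesothelin-like gene next to Msln, had means of 2.31 and 3.95 and no adjusted p in the authors' deposited table. The epithelial mucin Muc1 had means of 8410 and 8395, with an adjusted p of 0.999 in the authors' deposited table. Muc4, another membrane mucin of epithelia, had means of 1666 and 1669.

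Crb2 and Cldn15 are genes of the apical and junctional side of an epithelium. Crb2, a Crumbs protein that sets apical polarity (kgCluster15417, chromosome 2, 37776249 to 37799103), had 7, 15 and 2 reads in wild type libraries A, B and C, and 26, 87 and 35 in knockout libraries A, B and C. The groups did not overlap, with 1.70 times between the highest wild type and the lowest knockout library. The share of such rows was 7.27% among the 2186 compared for Wt1, and Crb2 too was selected on its means. The normalized counts were 7.96 ± 6.48 (SD, n = 3) and 48.8 ± 32.0 (SD, n = 3), a 6.13-fold difference that was 3.84-fold without knockout library B and 10.9-fold without wild type library B. In the authors' deposited table Crb2 had a shrunken log2 fold change of 0.17 ± 0.046 (SE) and an adjusted p of 0.0216. Dennd1a, which overlaps Crb2 on the other strand, had means of 1518 and 1447 and an adjusted p of 0.971 in the authors' deposited table, and whether strand was used in counting is not given in the sources used here. Of 8 apical polarity genes found, Crb2 was the only one called in the authors' deposited table, and the other 7 had a median log2 ratio of 0.02.

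Cldn15, a claudin that forms cation-selective tight junction pores (kgCluster22604, chromosome 5, 136966616 to 136975858), had authors' means of 83.7 and 330.4, 3.95-fold higher in knockout. Its wild type mean fitted 2 sets of reads, 80, 117 and 54 or 98, 29 and 121, and so gives no order of libraries. The 9 other claudins had a median log2 ratio of 0.03. By DESeq2 in the authors' deposited table, calls were made for 0 of these 9, with 1 higher and 1 lower at an unadjusted p under 0.05, a level that 7.09% of all rows with a p-value reached. Those were Cldn1, with means of 528 and 624, and the endothelial Cldn5, with means of 14192 and 12369. Their adjusted p-values in the authors' deposited table were 0.489 and 0.314.

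The uroplakins, named for the plaques of the bladder surface, were divided. Upk3b (kgCluster22586, chromosome 5, 136038496 to 136046487) is the member of the family typical of mesothelium, and its authors' means were 146 and 1404. Upk1b, a tetraspanin of the family (kgCluster10976, chromosome 16, 38773184 to 38800328), had means of 939 and 916 and an adjusted p of 0.997 in the authors' deposited table. Of the other uroplakins, Upk1a had authors' means of 88.5 and 113, Upk2 of 74.9 and 66.9, Upk3a of 17.8 and 18.2 and Upk3bl of 1.35 and 1.64. By DESeq2 in the authors' deposited table, calls were made for 0 of these 4 and 0 had an unadjusted p under 0.05. Lrrn4, a leucine-rich repeat membrane protein outside this family (kgCluster16760, chromosome 2, 132868305 to 132880891), had authors' means of 71.9 and 608, 8.46-fold apart. Single libraries could not be derived in both genotypes for Upk3b, Upk1b or Lrrn4.

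Aldh1a2, the retinaldehyde dehydrogenase that makes retinoic acid (kgCluster30388, chromosome 9, 71215789 to 71296243), had authors' means of 185 and 663, 3.59-fold higher in knockout. Among 16 genes of retinoic acid synthesis, transport, breakdown and reception it was 1 of 3 with a higher knockout mean, and the list's median log2 ratio was -0.14. Over all rows, 48.8% had a higher knockout mean, and 1.09% of rows with an adjusted p were called in either direction. Cyp26b1, an enzyme that breaks retinoic acid down, had authors' means of 3998 and 290, 13.8-fold lower in knockout. It too is without a p-value, the only 1 of the 17 such rows with a lower knockout mean. Rbp4, which carries retinol in blood, fell 1.36-fold in the authors' deposited table (1209 and 890, adjusted p = 0.000193), the only gene of the list called. The other aldehyde dehydrogenases of the pathway, Aldh1a1 and Aldh1a3, had adjusted p-values of 0.836 and 0.969 in the authors' deposited table.

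Levels between genes were compared per kilobase of exon (union of GENCODE M21 exons, which overstates the length of a gene with several transcripts). In wild type, Upk1b stood highest at 449 normalized counts per kilobase, followed by Msln at 90.9, Aldh1a2 at 81.7, Upk3b at 41.5, Cldn15 at 39.4 and Lrrn4 at 19.3. Bnc1, Wt1, Crb2 and Muc16 were at 3.21, 1.45, 1.19 and 0.801 normalized counts per kilobase. In knockout, Msln came first at 494, then Upk1b at 439 and Upk3b at 398, while the lowest 4 means ran from Bnc1 at 29.1 to Muc16 at 2.61. Per kilobase, the wild type libraries overlapped in every pair among Bnc1, Wt1, Crb2 and Muc16, so the order of these 4 is not beyond the spread. In knockout, neighbours among Wt1, Crb2 and Muc16 overlapped as well, and Bnc1 has no derived libraries. For the 6 genes above Bnc1 the spread between libraries is not known.

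The authors' shrunken estimates of the 9 genes were far smaller than the ratios of their means. The shrunken log2 fold change was 0.0169 of the log2 ratio for Bnc1 and 0.131 of it for Muc16, the lowest and highest of the 9, against a median of 0.704 over all called rows. For Msln the authors' deposited table gives 0.09 ± 0.034 (SE) beside a log2 ratio of 2.44. DESeq2, by default, leaves out the p-value of a row in which a library stands far from the others of its group, and whether that setting was used is not given in the sources used here. The knockout reads could be derived for 6 of the 17 rows without a p-value, and library B was the highest in 6 of 6, with 62.9% to 84.8% of the reads. Wt1 is the only mesothelial gene among these 6. If that setting was used, such rows would hold a far library by its rule, so nothing is read from this count. Over the 2186 rows with reads derived in both genotypes and at least 60 reads in all, knockout library B was the highest of its group in 42.5%. It held at least 50% of the knockout normalized reads in 3.43% of those rows, Wt1 and Crb2 being among them and Muc16 just outside. In wild type, library B was the highest in 35.1% of the rows and library C the lowest in 36.6%. Wt1, Crb2, Muc16 and Bnc1 all had wild type B as the highest, and all but Muc16 had C as the lowest. In the same 2186 rows all knockout libraries were above all wild type libraries in 7.27%, and in 10.6% without knockout library B. Wt1, Crb2 and Muc16 are among these rows, but they were selected on their means, and Wt1 and Crb2, with 27 and 24 wild type reads, passed the minimum of 60 through their knockout reads, so nothing is read from it. The part of library B in the other 6 genes with a higher mean was not tested.

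**Figure D3:**
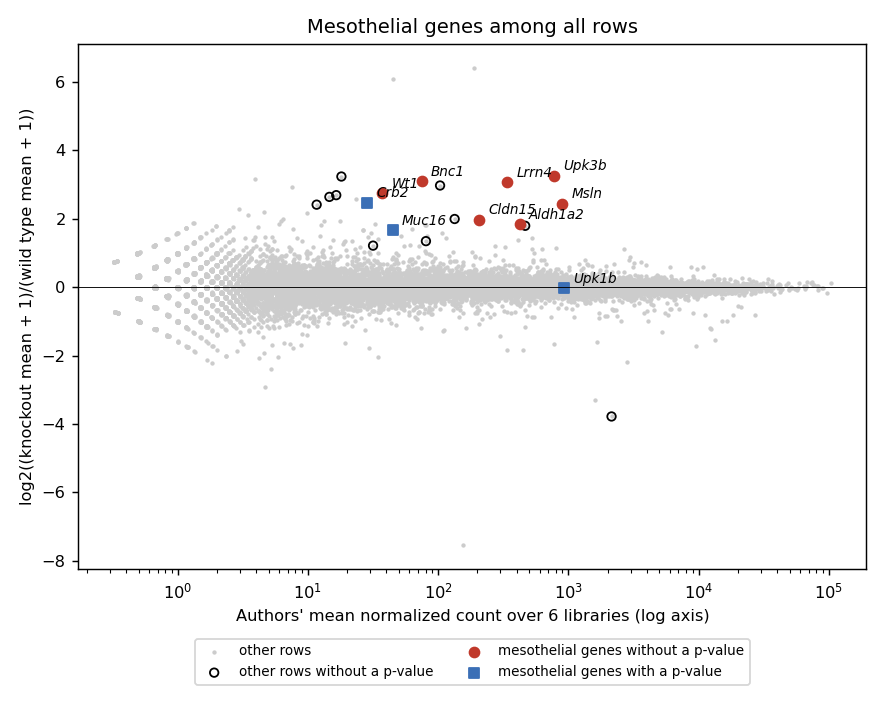
Log2 ratio of the group means (1 normalized count added to each) against the authors' mean over 6 libraries (log axis) for all 20494 rows. Red points are mesothelial genes without a p-value, blue squares those with one, open circles the other rows without a p-value, grey points all remaining rows. Of the 10 genes, 9 lie at 1.66 or higher and Upk1b lies at -0.03, and the open circles are also high, except Cyp26b1 at -3.78.

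Rows without a p-value that are not among the 10 genes include several with a knockout excess of similar size. Gdf2, encoding the circulating ligand BMP9, had 1, 6 and 1 reads in wild type libraries A, B and C and 16, 73 and 13 in knockout libraries A, B and C. Slc22a14, a solute carrier, had 4, 3 and 4 reads and 16, 56 and 17 reads in the same order. Nxph1, a neurexophilin, had 2, 5 and 2 and then 9, 47 and 6. In these genes too, knockout B was the highest library, as in Wt1 and in 42.5% of 2186 rows with derived reads. Chst4, a sulfotransferase, had authors' means of 22.6 and 184, and its wild type reads of 13, 47 and 8 were highest in B, as were those of Bnc1. Sfmbt2 had authors' means of 53.1 in wild type and 214 in knockout, and Pkhd1l1 of 208 and 723.

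The rows whose 6 library values were most like the average of Wt1, Crb2 and Muc16 were sought among 1355 other rows with at least 60 derived reads and a gene symbol, leaving out clone names and predicted genes. Prg2, an eosinophil granule protein, was the nearest (Pearson r = 0.994 over 6 libraries, on log2 of normalized reads plus 1), with 12, 18 and 6 reads in wild type and 32, 61 and 30 in knockout libraries A, B and C. Its adjusted p was 0.0532 in the authors' deposited table. Gdf2 followed (r = 0.983), then Pcnxl2 (0.976), Nav3 (0.970), Gls2 (0.970), Itgb8 (0.960), Rpp25 (0.960) and Spink2 (0.957). With 6 points that share library and depth, r above 0.9 was reached by 29 of the 1355 rows, 2.14%, and the likeness includes the difference between genotypes. The 3 genes of the average were selected on their means, and rows such as Gdf2 passed the minimum of 60 through their knockout reads. Nothing is therefore read from the likeness. Nav3, Gls2 and Itgb8 reached such r at folds of only 1.33, 1.45 and 1.40. Libraries of a genotype differed little in Nav3, with 25, 26 and 22 reads in wild type and 32, 35 and 31 in knockout.

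A further list of 22 genes that mesothelium expresses, many of them shared with other cells, was set beside the 10. It was chosen with earlier results of these data known, so its counts are a description. All 22 were found, and of the 21 tested with adjustment by the authors 2 were called higher and 0 lower in the authors' deposited table. Over all rows with an adjusted p, 0.592% were called higher and 1.09% in either direction. Rspo1, a ligand that enhances Wnt signalling, rose in the authors' deposited table (means of 477 and 829, adjusted p = 3.78e-05). Efemp1, the matrix protein fibulin-3, rose there too (4123 and 5087, adjusted p = 0.0439 in the authors' deposited table). At an unadjusted p under 0.05 there were 7, all higher, a level that 7.09% of all rows with a p-value reached in either direction. The other 5 were Nkain4 (673 and 872), the membrane protein gene Gpm6a (2525 and 3764), Igfbp6, which binds insulin-like growth factors (4465 and 5305), Slpi, a secreted protease inhibitor (807 and 1223), and Tmem151a (251 and 353), with adjusted p-values from 0.0546 to 0.437 in the authors' deposited table.

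The list's median log2 ratio was 0.28, with 17 genes higher and 5 lower by their means, where 48.8% of all rows had a higher knockout mean. The keratins Krt7, Krt8, Krt18 and Krt19, which airway and alveolar epithelium also make, had authors' means between 4489 and 11752 and adjusted p-values from 0.997 to 0.999 in the authors' deposited table. Gata4, Tbx18 and Fgf9, developmental regulators of mesothelium, were low enough to be split. Gata4 had 25, 46 and 31 reads in wild type libraries A, B and C and 54, 74 and 34 in knockout. Tbx18 had 11, 16 and 8 and then 18, 36 and 13, and Fgf9 had 9, 11 and 14 and then 15, 35 and 11. In all 3 the groups overlapped, and knockout B was the highest, as in 42.5% of 2186 rows with derived reads. Itln1, a serosal and intestinal lectin, differed from them, with 60, 38 and 15 reads in knockout libraries A, B and C, so A was its highest. Calb2, calretinin, a diagnostic marker of mesothelium, was almost absent, with 3 wild type reads and 1 knockout read.

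**Figure D4:**
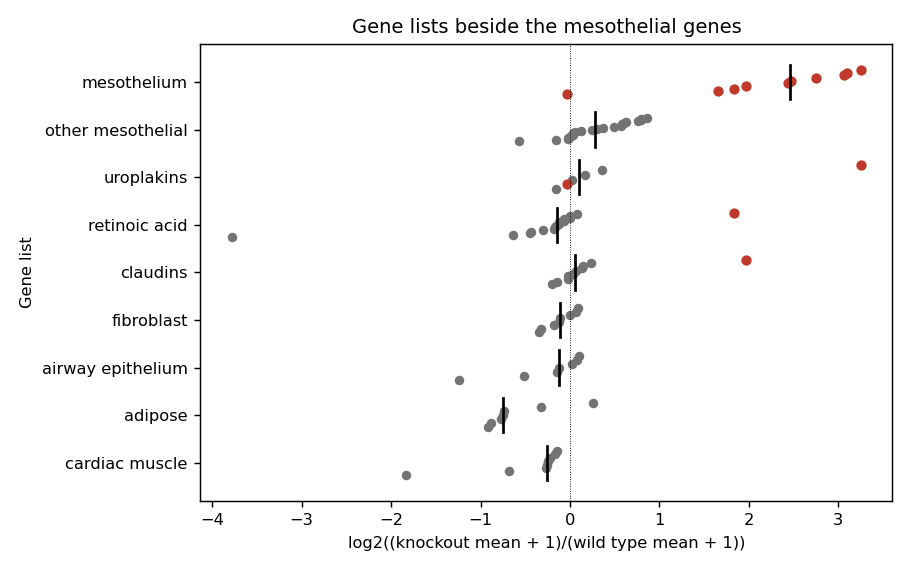
Log2 ratios of the group means (1 normalized count added to each) for genes of 9 lists; red points are the 10 mesothelial genes wherever they occur, grey points other genes, and black bars list medians. The mesothelium median lies at 2.46 and that of the other mesothelial genes at 0.28, while the medians of the other 7 lists lie between -0.75 and 0.10.

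Markers of other tissues that a dissected lung can carry were set beside these values. Over all rows, 48.8% had a higher knockout mean. Of rows with an adjusted p 1.09% were called in either direction, and 7.09% of rows with a p-value had an unadjusted p under 0.05 by DESeq2. Adipose genes had a summed authors' mean of 4341 in wild type and 2664 in knockout, with 6 of 7 lower and a median log2 ratio of -0.75, and DESeq2 called 0 of them in the authors' deposited table, while 1 had an unadjusted p under 0.05. Retn, an adipocyte gene whose knockout reads could be derived, had 48, 105 and 24 in libraries A, B and C, the same highest library as Wt1, Crb2 and Muc16. Its authors' means were 98.3 in wild type and 58.1 in knockout. Knockout B was the highest of its group in 42.5% of 2186 rows with derived reads, so nothing is read from this order here or below. Cardiac muscle genes, which mouse pulmonary veins also express, summed to 20576 and 16478, with 8 of 8 lower, 0 called and 1 at an unadjusted p under 0.05. By DESeq2 in the authors' deposited table, none of the 8 fibroblast genes (0) and none of the 6 alveolar type 1 genes (0) were called, and 0 in either list had an unadjusted p under 0.05. Of 5 alveolar type 2 genes 0 were called, and at an unadjusted p under 0.05 Lamp3 was higher (24057 and 26468) and Abca3 lower (28712 and 25539). Adjusted p-values of this pair were 0.412 and 0.497 in the authors' deposited table. The airway list had 0 of 7 called and 1 lower at an unadjusted p under 0.05. Its basal cell genes Krt5 and Trp63 had knockout reads of 10, 39 and 0 and of 43, 59 and 17, again highest in library B, but their wild type means were higher than their knockout means. The 6 skeletal muscle genes found summed to 669 and 510.2, most of it from Ckm, the muscle creatine kinase, with means of 472 and 347, and Tnnt3, a troponin, with 138 and 104. In knockout libraries A, B and C the muscle gene Mylpf had 47, 52 and 52 reads, the liver gene Alb 30, 44 and 36, and the thymus gene Dntt 21, 14 and 16. The part of other tissues in the mesothelial differences was not tested.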

How the data were processed

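Poly(A) RNA of whole lung was sequenced in 6 libraries. Per the submitters' processing notes, STAR 2.5.1b, Bowtie2, SAMtools, bedtools and DESeq2 were used, with no roles stated. The deposited signal values are the authors' group means of normalized counts, beside the authors' shrunken log2 fold change with a standard error, the test score, and the authors' p-value and adjusted p-value. Of 20494 rows, 17 have no p-value and another 3575 no adjusted p.

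Log2 ratios were computed from the means plus 1, rows being called at an adjusted p under 0.05. Reads per library were derived where exactly 1 set of whole reads, each times its library's step, gave the printed mean. This held for every mean between 0 and 40 (4901 in wild type, 4877 in knockout) and for few above 60. Relative size factors ran from 0.961 to 1.03. With 3 against 3 libraries an exact two-sided test cannot go below 0.1, so none was run. The rule for naming covered the 10 genes, the rows without a p-value except clone names, and other mesothelial genes with an unadjusted p under 0.05. It also covered up to 4 genes of each other list with the highest means, and the 8 rows nearest in profile. For the other lists it was not followed in full, and the airway genes with the highest means, among others, are not named. Other list genes named were chosen after their values were seen. Genes and lists were chosen with earlier results of these data known. Analysis used Python 3.11.15, pandas 2.3.3 and scipy 1.17.1, and alternatives varied the added count, the least mean, the estimate and the libraries.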

Additional observations from a re-analysis of the deposited data

How the results depend on the processing

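The 9 of 10 higher means and the 2 called genes kept their count under the alternatives tried, except that with a least mean of 50 6 of 7 were higher. These counts had little room to move, so no stability is read from them. Of the 10 genes, 7 have no p-value at any threshold, a least mean only drops genes, and the shrunken estimates come from the same counts. The median log2 ratio of the 10 genes, 2.46, lay between 2.20 and 2.53 with other added counts and least means, but was 0.0895 by the authors' shrunken estimates. Over Wt1, Crb2 and Muc16 the median was 2.47, and leaving out 1 library gave 1.71 (without knockout library B) to 3.07 (without wild type library B). The median of the other mesothelial genes, 0.28, was 0.13 with a least mean of 50 and 0.43 without keratins, and the cause was not tested. Of 48 values for single genes under alternatives, 33 moved by less than the spread taken for the gene, 15 by more, 9 of them by shrinkage, and 0 reversed. That spread was the pooled SD between libraries, 0.951 on the log2 scale, or the authors' SE where no reads were derived. The SE belongs to the shrunken estimate and is far smaller, so the split of 33 and 15 does not measure stability. With 5 added to each mean, Upk3b went from 3.25 to 3.22 and counted as moved, while Wt1 went from 2.75 to 2.34 and did not. A count test on derived reads was not run, since reads could be derived in both genotypes for 26.7% of rows. No paired analysis was possible because the labels give no shared replicate numbers and the columns are group means.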
